A study of Mus musculus with 15 samples.

Results

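The profibrotic growth factors of the TGF-beta and PDGF families were followed through kidneys of male C57BL/6 mice. The 10 genes were chosen by symbol: Tgfb1, Tgfb2 and Tgfb3, the TGF-beta isoforms, Inhba, which encodes the activin A subunit, Bmp7, a bone morphogenetic protein, Pdgfa, Pdgfb and Pdgfc, ligands of the platelet-derived growth factor (PDGF) family, Pdgfrb, a PDGF receptor, and Ctgf, a matricellular protein. All 10 were among the 23893 rows of the count table, and none shared its counts with another row. The series, titled as a mouse model of kidney injury with alcoholic liver fibrosis, holds 15 samples, and 14 libraries were analysed, each from the kidney of a mouse. The CCl4+EtOH group (3 libraries) received carbon tetrachloride (CCl4), a solvent known to injure the liver, by injection for 6 weeks and ethanol for 4 weeks. The titles of that group repeat CCl4 before ethanol, and whether CCl4 went on alongside ethanol is not given by the source descriptions. The CCl4 group (4 libraries) received CCl4 for 6 weeks, and replicates 3 and 4 received it for 4 further weeks at a reduced dose. The 4 EtOH libraries come from mice given olive oil, the vehicle, for 6 weeks and ethanol for 4 weeks. The olive oil group (3 libraries) received the vehicle for 6 weeks, and its replicate 4 was not analysed here. The labels at hand give neither age nor the route of ethanol, and no mouse carried an allele named in the labels. Since the olive oil mice had no second phase, an effect of ethanol and one of the 4 further weeks cannot be told apart between EtOH or CCl4+EtOH and olive oil.

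TGF-beta is secreted in a latent form, is held in the matrix by binding proteins, and is released by integrins and proteases. Its receptors, serine/threonine kinases, signal through SMAD2 and SMAD3 and raise matrix genes in kidney fibrosis. Bmp7, made by the kidney's tubules and podocytes, signals through other SMADs and is known in rodents to counter TGF-beta in injured kidney. PDGF-B, which drives mesangial cells and pericytes, acts through both PDGF receptors, PDGF-A acts through the alpha receptor, and PDGF-C must be cut by a protease such as tissue plasminogen activator before it binds.

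Totals ran from 16.4 to 23.6 M counts per library. Levels are given in CPM, which sets each count against the scaled size of its library. Markers of the proximal tubule, the main cell of the kidney cortex, summed to between 7558 and 22856 CPM, and none of their 10 genes was at 0 in any group. A library and a set of libraries stood apart. CCl4+EtOH replicate 3 lay nearer to the other groups than its partners, with a proximal tubule sum of 18544 CPM against 8433 and 7558 CPM in CCl4+EtOH replicates 1 and 2. EtOH replicates 1, 2 and 3 held transcripts of the adrenal cortex, at summed levels of 871, 800 and 1283 CPM, against 13.1 CPM in EtOH replicate 4 and between 10.8 and 36.3 CPM in the other libraries. A gene was called where its adjusted p was under 0.05, and a fold change is given as log2 with its standard error (SE).

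Promoter sequence was at hand for 5 of the 10 genes. The bases before the start of Tgfb1 and Tgfb2 are shown because both rose in CCl4+EtOH kidneys and their promoters differ in composition. Both are RefSeq sequence on GRCm38.p6, Tgfb1 at chr7:25686752-25687001 on the + strand and Tgfb2 at chr1:186705990-186706239 on the - strand, written 5′ to 3′ on the gene's strand, with the start just after the last base. Capitals mark the GC box (GGGCGG, read on both strands) in Tgfb1 and the TATA box (TATAAA) in Tgfb2.
Tgfb1: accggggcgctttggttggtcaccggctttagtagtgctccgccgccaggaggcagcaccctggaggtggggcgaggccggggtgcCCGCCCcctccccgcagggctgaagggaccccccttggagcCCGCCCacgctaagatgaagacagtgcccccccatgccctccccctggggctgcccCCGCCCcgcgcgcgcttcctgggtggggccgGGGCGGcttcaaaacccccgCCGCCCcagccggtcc
Tgfb2: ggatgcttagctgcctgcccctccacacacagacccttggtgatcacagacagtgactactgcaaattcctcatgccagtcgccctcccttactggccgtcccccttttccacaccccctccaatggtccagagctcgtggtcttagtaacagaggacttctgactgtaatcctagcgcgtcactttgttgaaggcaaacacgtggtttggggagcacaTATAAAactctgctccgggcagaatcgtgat
In the full windows of 250 bases before to 50 after the start, Tgfb1 was 77.0% G and C with 30 CpG dinucleotides and 6 GC boxes, of which the one at position 11 lies past the stretch printed. Tgfb2 was 54.3% G and C with 10 CpG dinucleotides, no GC box and a TATA box at position -31. Of 32851 mouse promoter windows of the same length, 35.7% held a GC box and 13.6% a TATA box on either strand. GTCTG, the letters of a SMAD site, occurred at 2 positions in Tgfb2 and at none in Tgfb1, against 49.6% of all windows that hold it. No match to the AP-1 letters TGANTCA, in 7.81% of all windows, or to the TEAD letters GGAATG, in 14.7%, was present in either window.

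In CCl4+EtOH kidneys the TGF-beta isoforms and 2 PDGF ligands rose over olive oil and Bmp7 fell. The calls of Tgfb1, Tgfb2 and Pdgfb held in all 23 alternative fits, while those of Tgfb3, Pdgfa and Bmp7 did not. Of the 9 genes with enough counts to be tested, 5 rose, where 18.9% of all 16105 genes tested rose, and 1 fell, where 16.6% of all genes fell. In the CCl4+EtOH group the 3 libraries lay above all olive oil libraries for those same 5 genes, against 22.9% of all genes, and none lay below for any tested member, against 20.8%. No member was called in CCl4 or in EtOH kidneys against olive oil. The median log2 fold change of all genes was 0.02 in the CCl4+EtOH comparison.

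**Figure D1:**
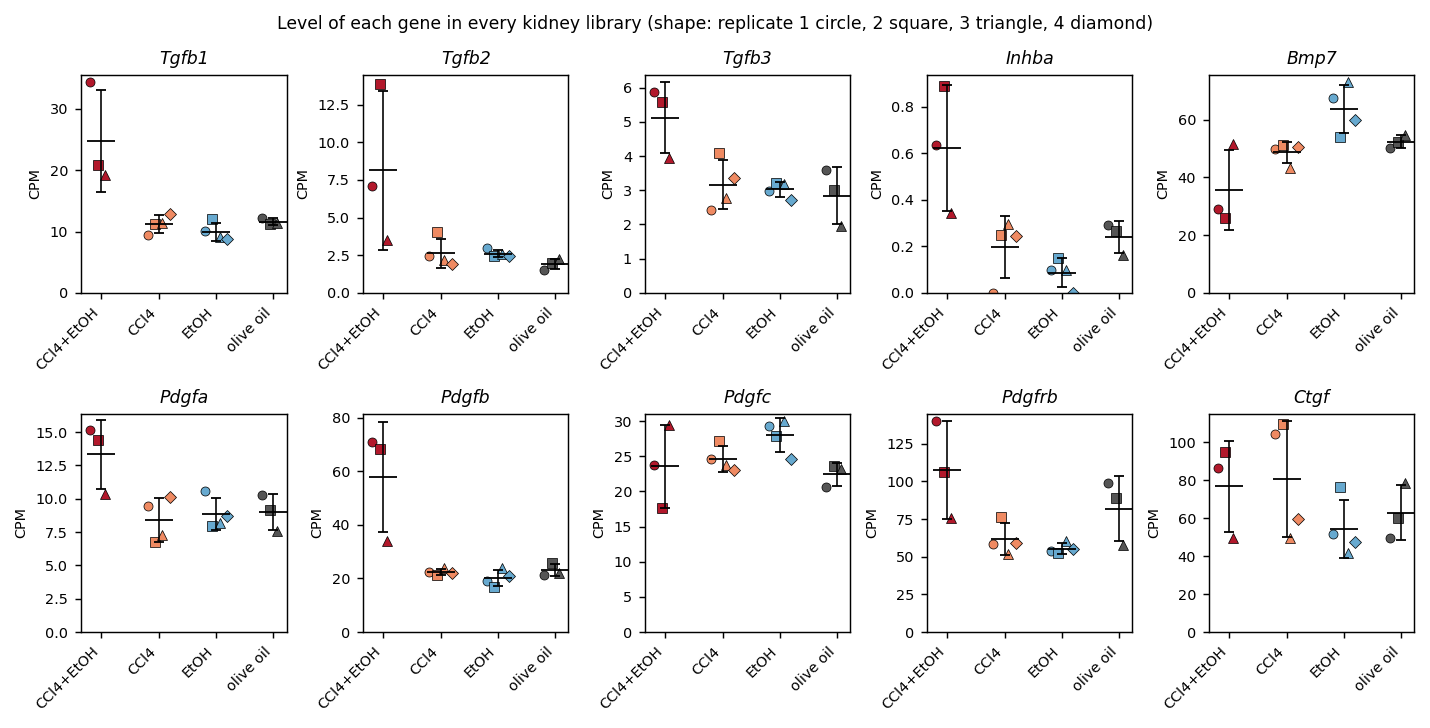
Level of each of the 10 genes in CPM (y axis, from 0) in CCl4+EtOH, CCl4, EtOH and olive oil kidneys, 1 point per library, with the mean as a line and the SD as bars. Tgfb1 and Pdgfb lie higher in all 3 CCl4+EtOH libraries than in any other library, while Bmp7 lies at 29.1 and 26.0 CPM in CCl4+EtOH replicates 1 and 2 and at 51.6 CPM in replicate 3.

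Tgfb1, the isoform most tied to kidney fibrosis, stood at 34.3, 20.8 and 19.2 CPM in CCl4+EtOH kidneys. In CCl4 kidneys it had 9.43, 11.2, 11.5 and 12.8 CPM, in EtOH kidneys 10.01, 12.0, 9.13 and 8.75 CPM, and in olive oil kidneys 12.3, 11.3 and 11.3 CPM. Every CCl4+EtOH library was above every other library, while the remaining groups overlapped each other. Tgfb1 averaged 24.8 ± 8.32 CPM in CCl4+EtOH and 11.6 ± 0.558 CPM in olive oil kidneys (SD, n = 3 each). The log2 fold change was 1.09 ± 0.20 (SE, adjusted p = 0.00115) over olive oil. It was 1.31 ± 0.18 (adjusted p = 0.000372) over EtOH and 1.14 ± 0.18 (adjusted p = 0.000524) over CCl4.

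Tgfb2 had the largest fold change of the tested members over olive oil and the widest spread. It reached 7.07, 13.9 and 3.5 CPM in CCl4+EtOH kidneys. The values were 2.44, 4.05, 2.19 and 1.88 CPM in CCl4, 2.97, 2.42, 2.55 and 2.47 CPM in EtOH and 1.53, 1.99 and 2.22 CPM in olive oil kidneys. CCl4+EtOH replicate 3, the lowest of its group, was above all olive oil and EtOH libraries and under CCl4 replicate 2. Tgfb2 rose over olive oil by 2.09 ± 0.41 on the log2 scale (adjusted p = 0.00197), over EtOH by 1.64 ± 0.37 (adjusted p = 0.0043) and over CCl4 by 1.62 ± 0.37 (adjusted p = 0.00436).

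Tgfb3 had 5.88, 5.57 and 3.93 CPM in CCl4+EtOH kidneys. CCl4 kidneys had 2.44, 4.1, 2.78 and 3.34 CPM, EtOH kidneys 2.97, 3.21, 3.19 and 2.73 CPM, and olive oil kidneys 3.58, 3.0 and 1.95 CPM, so that CCl4+EtOH replicate 3 fell within the CCl4 range. The log2 fold change was 0.85 ± 0.25 (adjusted p = 0.0177) over olive oil, 0.76 ± 0.23 (adjusted p = 0.0212) over EtOH and 0.69 ± 0.23 (adjusted p = 0.0312) over CCl4. The call over olive oil is lost without CCl4+EtOH replicate 1 (adjusted p = 0.0673) or replicate 2 (adjusted p = 0.0593) or olive oil replicate 3 (adjusted p = 0.0788). That over EtOH is lost without CCl4+EtOH replicate 1 or 2 or EtOH replicate 4, and that over CCl4 without CCl4+EtOH replicate 1 or 2, without CCl4 replicate 1, 3 or 4, without the EtOH libraries that hold adrenal transcripts, with a block splitting the title numbers into low and high, or with only the groups compared in the fit, at adjusted p between 0.0516 and 0.124. Exons of Tgfb3 overlap Gm48008 over 7.6% and Gm37804 over 4.82% of their bases on the opposite strand, and the sources at hand do not say whether counting used strand.

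Per kilobase of exon, Tgfb1 made up between 50.5% and 69.7% of the summed TGF-beta isoforms in CCl4+EtOH kidneys and between 64.5% and 70.1% in olive oil kidneys. The share of Tgfb2 was 12.5%, 29.3% and 10.8% in CCl4+EtOH libraries, between 8.44% and 16.9% in CCl4, between 11.2% and 15.2% in EtOH and between 7.02% and 12.0% in olive oil libraries. Tgfb1 was thus the main isoform in every library, and in CCl4+EtOH replicate 2 the Tgfb2 share was the highest of all 14.

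**Figure D2:**
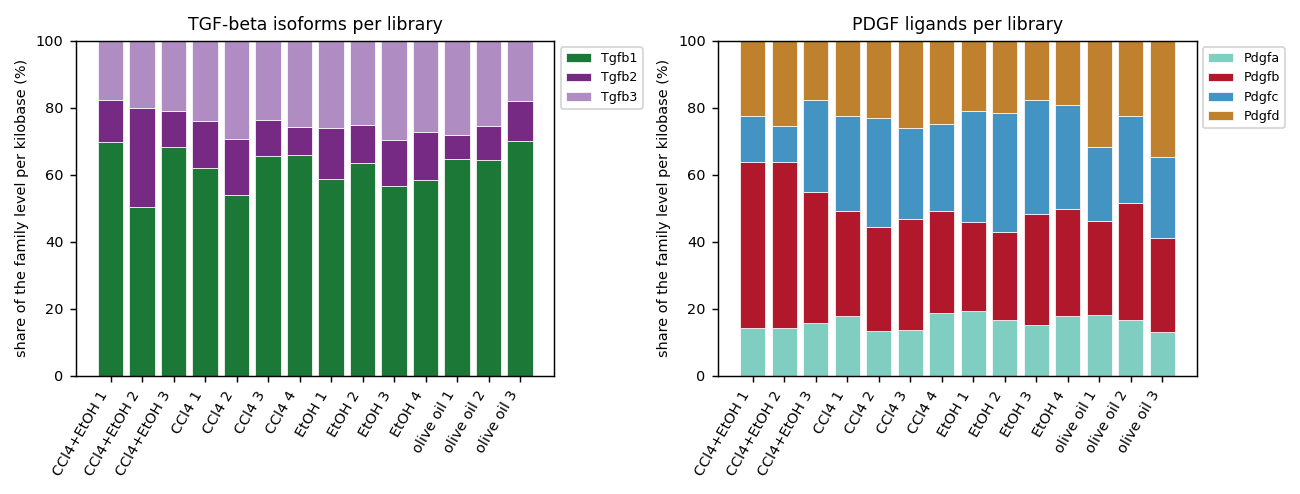
Share of each gene in the summed level per kilobase of its family (y axis, %), for the TGF-beta isoforms (left) and the PDGF ligands (right), 1 bar per library from CCl4+EtOH to olive oil. The Pdgfb share lies between 39.0% and 49.8% in CCl4+EtOH libraries and between 28.2% and 35.0% in olive oil libraries.

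Inhba had few counts, with 16, 22 and 8 in CCl4+EtOH libraries, 0, 5, 5 and 4 in CCl4 libraries, 2, 3, 2 and 0 in EtOH libraries and 5, 6 and 3 in olive oil libraries. In CPM it stood at 0.636, 0.888 and 0.345 in CCl4+EtOH and at 0.293, 0.265 and 0.163 in olive oil kidneys, so that all CCl4+EtOH libraries were above all others. A count of 0 allows up to 0.155 CPM in CCl4 replicate 1 and up to 0.19 CPM in EtOH replicate 4, at 3 counts each. The pooled level in CCl4+EtOH was 2.61 times that in olive oil (exact interval 1.41 to 5.15 at a confidence level of 0.95), 3.28 times that in CCl4 (1.77 to 6.46) and 6.88 times that in EtOH (3.08 to 18.1), where the intervals cover counting error only and not the spread between mice. Inhba did not pass the filter on low counts. With no filter its log2 fold change was 1.36 ± 0.70 over olive oil (adjusted p = 0.178), 2.71 ± 0.73 over EtOH (adjusted p = 0.013) and 1.66 ± 0.67 over CCl4 (adjusted p = 0.081), called over EtOH alone.

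Bmp7, the member known to oppose TGF-beta in kidney, was the lower one. It had 29.1, 26.0 and 51.6 CPM in CCl4+EtOH kidneys. CCl4 kidneys had 49.9, 51.2, 43.3 and 50.6 CPM, EtOH kidneys 67.6, 54.1, 73.1 and 60.04 CPM, and olive oil kidneys 50.04, 52.3 and 54.7 CPM. CCl4+EtOH replicates 1 and 2 were lower than every other library, while replicate 3 lay among the olive oil and CCl4 libraries and under all EtOH libraries. Bmp7 fell by 0.56 ± 0.20 on the log2 scale against olive oil (adjusted p = 0.0423) and by 0.84 ± 0.19 against EtOH (adjusted p = 0.00464). Against CCl4 the change was -0.46 ± 0.19 (adjusted p = 0.0736), and without CCl4+EtOH replicate 3 it was -0.83 (adjusted p = 5.5e-05). The call against olive oil is lost in 10 of the 14 fits that leave out a library, with CCl4+EtOH replicates 1 and 2, all olive oil replicates, CCl4 replicates 1, 2 and 4, and EtOH replicates 1 and 4.

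The ratio of Tgfb1 to Bmp7 per kilobase was 0.94, 0.639 and 0.296 in CCl4+EtOH kidneys. It ran from 0.151 to 0.211 in CCl4, from 0.0995 to 0.177 in EtOH and from 0.165 to 0.195 in olive oil kidneys, so that the CCl4+EtOH libraries lay above all others. The ratio is built from the levels given above and is not a separate result. In CCl4+EtOH replicate 3, Bmp7 at 51.6 CPM lay within the olive oil range.

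**Figure D3:**
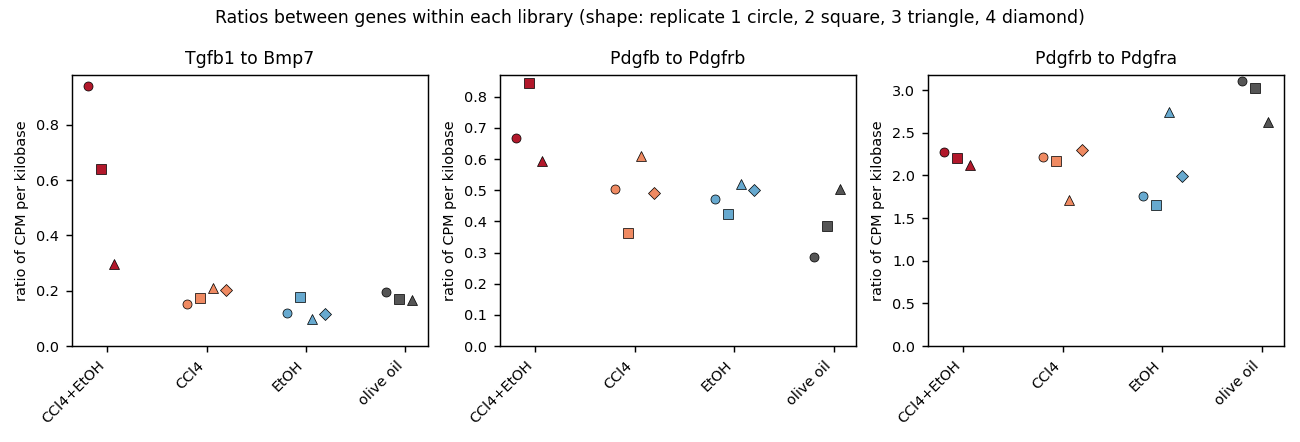
Ratio of levels per kilobase within each library (y axis, from 0) for Tgfb1 to Bmp7, Pdgfb to Pdgfrb and Pdgfrb to Pdgfra, with groups from CCl4+EtOH to olive oil and 1 point per library. The Tgfb1 to Bmp7 ratio is 0.296 or more in CCl4+EtOH libraries and 0.211 or less elsewhere.

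Among PDGF ligands, Pdgfb rose most. It had 71.0, 68.2 and 34.1 CPM in CCl4+EtOH kidneys. CCl4 kidneys had 22.3, 21.1, 23.9 and 22.1 CPM, EtOH kidneys 19.2, 16.9, 23.8 and 20.9 CPM, and olive oil kidneys 21.4, 25.9 and 22.1 CPM. The 3 CCl4+EtOH libraries were above all other libraries, with replicate 3 nearest to them. Pdgfb averaged 57.8 ± 20.6 CPM in CCl4+EtOH and 23.1 ± 2.41 CPM in olive oil kidneys (SD, n = 3 each). The log2 fold change was 1.32 ± 0.21 over olive oil (adjusted p = 0.000739), 1.51 ± 0.20 over EtOH (adjusted p = 0.000302) and 1.37 ± 0.20 over CCl4 (adjusted p = 0.000352). Tgfb1 and Pdgfb were the tested members whose CCl4+EtOH libraries were above all other libraries, against 10.2% of all genes.

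Pdgfa changed less, with 15.2, 14.4 and 10.4 CPM in CCl4+EtOH kidneys. It had 9.48, 6.76, 7.27 and 10.2 CPM in CCl4, 10.6, 7.96, 8.14 and 8.69 CPM in EtOH and 10.3, 9.14 and 7.59 CPM in olive oil kidneys. The lowest CCl4+EtOH library and the highest olive oil library were thus nearly level, and EtOH replicate 1, at 10.6 CPM, was above the lowest CCl4+EtOH library. Pdgfa rose by 0.57 ± 0.19 on the log2 scale over olive oil (adjusted p = 0.0335), by 0.59 ± 0.18 over EtOH (adjusted p = 0.0199) and by 0.66 ± 0.18 over CCl4 (adjusted p = 0.011). The call over olive oil is lost without CCl4+EtOH replicate 1 (adjusted p = 0.118) or 2 (adjusted p = 0.1), and without olive oil replicate 2 (adjusted p = 0.0775) or 3 (adjusted p = 0.127), and without the EtOH libraries that hold adrenal transcripts (adjusted p = 0.0577). That over EtOH is lost without CCl4+EtOH replicate 1 or 2 or EtOH replicate 3, at adjusted p between 0.0512 and 0.0952, and that over CCl4 without CCl4+EtOH replicate 1 (adjusted p = 0.057). The noncoding gene 6330403L08Rik overlaps 26.1% of its exonic bases on the opposite strand, and reads of the overlapping genes cannot be told apart without strand.

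Pdgfc, the ligand that needs cleavage, had 23.7, 17.6 and 29.4 CPM in CCl4+EtOH kidneys. CCl4 kidneys had between 23.0 and 27.1 CPM, EtOH kidneys between 24.6 and 30.1 CPM, and olive oil kidneys 20.6, 23.5 and 23.2 CPM. Its CCl4+EtOH libraries lay on both sides of the olive oil range. The log2 fold change was 0.07 ± 0.15 over olive oil (adjusted p = 0.743) and -0.25 over EtOH (adjusted p = 0.183). Per kilobase, Pdgfb made up 49.7%, 49.8% and 39.0% of the PDGF ligands (Pdgfa, Pdgfb, Pdgfc and Pdgfd) in CCl4+EtOH libraries. Its share was 30.6% to 33.3% in CCl4, 26.4% to 33.1% in EtOH and 28.2% to 35.0% in olive oil libraries. The Pdgfc share ran from 10.5% to 27.5% in CCl4+EtOH and from 22.1% to 26.0% in olive oil libraries.

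Pdgfrb, the receptor of pericytes, fibroblasts and mesangial cells, was called in CCl4+EtOH kidneys over EtOH and over CCl4 kidneys and not over olive oil kidneys. It had 140, 106 and 75.4 CPM in CCl4+EtOH kidneys. CCl4 kidneys had 58.3, 76.5, 51.6 and 59.3 CPM, EtOH kidneys 53.6, 52.4, 60.3 and 55.0 CPM, and olive oil kidneys 99.1, 88.8 and 57.9 CPM. CCl4+EtOH libraries were thus above all EtOH libraries and overlapped olive oil, and the olive oil libraries, except replicate 3, were above both single-treatment groups. The log2 fold change was 0.96 ± 0.20 over EtOH (adjusted p = 0.00358) and 0.81 ± 0.20 over CCl4 (adjusted p = 0.0085), against 0.39 ± 0.22 over olive oil (adjusted p = 0.18). EtOH against olive oil gave -0.57 ± 0.20 (adjusted p = 0.313) and CCl4 against olive oil -0.41 ± 0.20 (adjusted p = 1). Without CCl4+EtOH replicate 3 the change over olive oil was 0.59 (adjusted p = 0.0305), and without CCl4+EtOH replicate 1 that over CCl4 was 0.57 (adjusted p = 0.0578).

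Between ligand and receptor, the ratio of Pdgfb to Pdgfrb per kilobase was 0.666, 0.843 and 0.595 in CCl4+EtOH kidneys and between 0.285 and 0.503 in olive oil kidneys. CCl4 replicate 3 overlapped the CCl4+EtOH range at 0.609. The ratio of Pdgfrb to Pdgfra, the other PDGF receptor, ran from 2.12 to 2.27 in CCl4+EtOH, from 1.71 to 2.3 in CCl4, from 1.65 to 2.74 in EtOH and from 2.63 to 3.11 in olive oil kidneys. The CCl4+EtOH libraries lay within the ranges of both single treatments.

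Ctgf, known as a target of TGF-beta and YAP, was not called in any of the 5 comparisons run between groups, which leave out EtOH against CCl4. It had 86.2, 94.6 and 49.5 CPM in CCl4+EtOH kidneys, 51.8, 76.6, 41.5 and 47.5 CPM in EtOH kidneys and 49.8, 60.3 and 78.5 CPM in olive oil kidneys, which all overlapped. In CCl4 kidneys it had 49.8 and 59.3 CPM after the 4 further weeks (replicates 3 and 4), against 104 and 110 CPM after 6 weeks (replicates 1 and 2). The log2 fold change of CCl4+EtOH was 0.29 ± 0.33 over olive oil (adjusted p = 0.526), 0.50 over EtOH (adjusted p = 0.231) and -0.08 over CCl4 (adjusted p = 0.875). The later CCl4 libraries, against those taken at 6 weeks, gave -0.97 ± 0.32 (adjusted p = 0.607), and no gene was called between these schedules by edgeR, with 1096 at an unadjusted p under 0.05, against 25 by DESeq2 and 8 by limma-voom. In a fit of only those 4 libraries the change was -0.98 (adjusted p = 0.00265), among 164 genes called higher and 111 called lower. Exons of Ctgf overlap Gm15270 on the opposite strand over 23.2% of their bases.

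**Figure D4:**
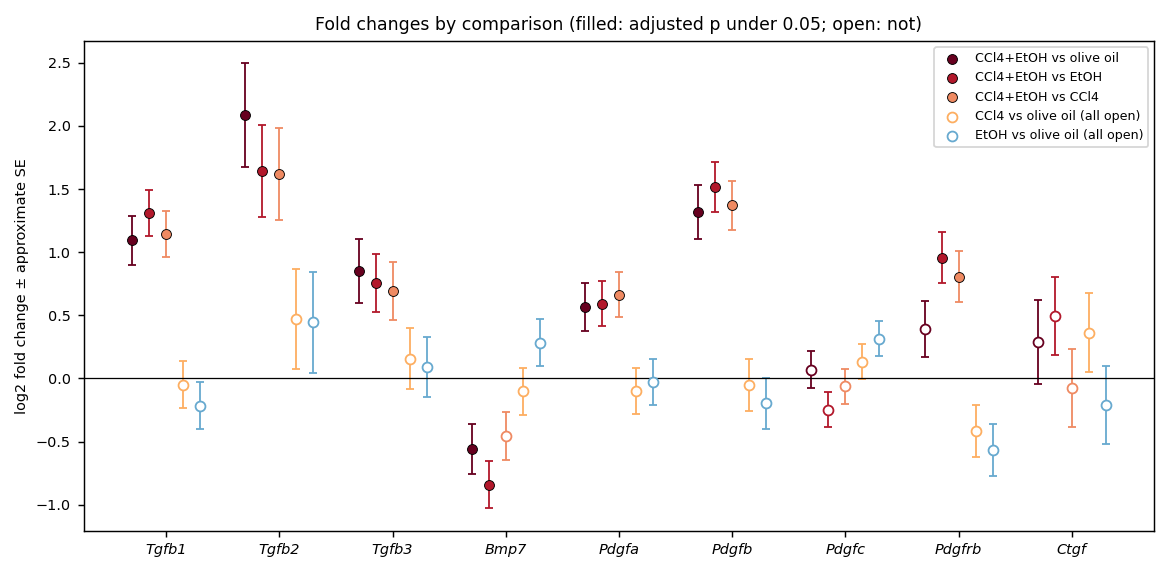
log2 fold change with its SE (y axis) of the 9 tested genes in 5 comparisons, filled where the adjusted p was under 0.05. Points of CCl4+EtOH over olive oil, EtOH and CCl4 are filled for Tgfb1, Tgfb2, Tgfb3, Pdgfa and Pdgfb, and every point of CCl4 and of EtOH over olive oil is open.

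Over EtOH kidneys, 6 of the 9 tested members rose in CCl4+EtOH (18.1% of all genes) and 1 fell (16.2%). Over CCl4 kidneys 6 rose (18.7%) and none fell (16.2%), while Bmp7 fell in that comparison in DESeq2 and limma-voom and had an unadjusted p under 0.05 in edgeR. Leaving out EtOH replicates 1, 2 and 3, which held adrenal transcripts, leaves a lone EtOH library, whose spread is then taken from the other groups. Tgfb1 is then the 1 member called over EtOH, by 1.49 (adjusted p = 0.0488), with Pdgfb at 1.45 (adjusted p = 0.0554), Tgfb2 at 1.70 (adjusted p = 0.153) and Pdgfrb at 0.95 (adjusted p = 0.136). The adrenal cortex markers summed to between 10.8 and 14.3 CPM in CCl4+EtOH and between 11.6 and 12.3 CPM in olive oil libraries.

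Neither treatment alone called a member. CCl4 against olive oil called 0 of the 9, and 0% of all genes, with 640 genes and 0 members at an unadjusted p under 0.05, 1 gene in DESeq2 and 0 in limma-voom. The largest changes of members were Tgfb2 at 0.47 ± 0.40 and Pdgfrb at -0.41 ± 0.20. EtOH against olive oil called 0 of the 9, against 0.168% of all genes, with 1679 genes at an unadjusted p under 0.05, 2 of them members, Pdgfc and Pdgfrb. DESeq2 and limma-voom also called 0 of the members in both comparisons. Apart from Pdgfrb, the largest changes were Tgfb2 at 0.44 ± 0.40, Pdgfc at 0.32 ± 0.14 (adjusted p = 0.447) and Bmp7 at 0.28 ± 0.18 (adjusted p = 0.681).

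Whether CCl4 made a different change with ethanol than without was tested as an interaction, the change of CCl4+EtOH over EtOH minus that of CCl4 over olive oil. Both ethanol groups had 4 further weeks, which olive oil mice and CCl4 replicates 1 and 2 did not, so that the interaction does not separate ethanol from that added time. It was positive and called for 3 members, Pdgfb at 1.57 ± 0.28 (adjusted p = 0.0114), Tgfb1 at 1.36 ± 0.26 (adjusted p = 0.0128) and Pdgfrb at 1.37 ± 0.29 (adjusted p = 0.0181), where 5.49% of all genes were. No member was called negative by edgeR, where 3.63% of all genes were, against 1 by DESeq2 and 2 by limma-voom, and Bmp7 stood at -0.74 (adjusted p = 0.0884, with an unadjusted p under 0.05). Tgfb2 gave 1.18 (adjusted p = 0.168), Tgfb3 0.60 (adjusted p = 0.251) and Pdgfa 0.69 (adjusted p = 0.0959). Without EtOH replicates 1 to 3 none was called, with Pdgfb at 1.505 (adjusted p = 0.19), Tgfb1 at 1.53 (adjusted p = 0.185) and Pdgfrb at 1.36 (adjusted p = 0.217). Without CCl4+EtOH replicate 3 the positive calls numbered 6, with Tgfb2, Pdgfa and Inhba added, the last of which passed the filter there, and the negative calls 2, Bmp7 and Pdgfc. The interaction of Pdgfrb is not called without CCl4+EtOH replicate 2 (adjusted p = 0.0503) or olive oil replicate 1 (adjusted p = 0.0567).

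Levels between genes were compared per kilobase of exon. In CCl4+EtOH kidneys the order was Ctgf at 26.8 CPM per kilobase, Pdgfrb at 19.6, Pdgfb at 13.9, Bmp7 at 8.85, Tgfb1 at 4.91, Pdgfc at 4.63, Pdgfa at 4.27, Tgfb3 at 1.52, Tgfb2 at 1.41 and Inhba at 0.0975. Only the neighbours Pdgfa and Tgfb3, and Tgfb2 and Inhba, did not overlap there. In olive oil kidneys the order was Ctgf at 22.0 CPM per kilobase, Pdgfrb at 15.0, Bmp7 at 13.0, Pdgfb at 5.56, Pdgfc at 4.41, Pdgfa at 2.89, Tgfb1 at 2.3, Tgfb3 at 0.841, Tgfb2 at 0.33 and Inhba at 0.0376. Only Ctgf and Pdgfrb, and Pdgfrb and Bmp7, overlapped as neighbours in that group. Pdgfb was thus above Bmp7 in the mean of CCl4+EtOH kidneys and under it in olive oil kidneys.

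Genes whose pattern over the 14 libraries was most like a called member were found by the root mean square difference of log2 CPM, each gene centred on its mean, among 13439 genes. For Pdgfb they were Tes at 0.132, Axl at 0.167 and Tubb5 at 0.17, where the median gene stood at 0.641. For Tgfb1 they were Ppp1r18 at 0.162, Efhd2 at 0.176 and Anxa5 at 0.178 (median 0.564), and for Tgfb2 Smox at 0.284, Ctxn1 at 0.298 and Clstn2 at 0.326 (median 0.821). For Tgfb3 they were Ssc5d, Svep1 and Mkl2, at 0.165 to 0.168, for Pdgfa Nradd, Rhno1 and Jund, at 0.137 to 0.145, and for Bmp7 Scly, Hes6 and Lrp4, at 0.123 to 0.13. Within the members the closest pairs were Tgfb3 and Pdgfrb at 0.276, Pdgfc and Bmp7 at 0.284 and Tgfb1 and Pdgfb at 0.289.

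Of 5 TGF-beta receptors tested, Tgfbr1 and Tgfbr2, the signalling pair, rose over olive oil, and none fell (median log2 fold change 0.18), where 18.9% of all genes rose and 16.6% fell. Tgfbr1 averaged 141 ± 26.2 CPM in CCl4+EtOH and 88.9 ± 4.31 CPM in olive oil kidneys (SD, n = 3 each), a log2 change of 0.66 ± 0.12 (adjusted p = 0.000978). Tgfbr2 averaged 195 ± 60.4 CPM in CCl4+EtOH and 109 ± 4.35 CPM in olive oil kidneys, a log2 change of 0.84 ± 0.17 (adjusted p = 0.00208). Tgfbr3, the accessory receptor betaglycan, stood at -0.30 ± 0.13 over olive oil (adjusted p = 0.0873), and fell by 0.52 against EtOH (adjusted p = 0.00643) and by 0.40 against CCl4 (adjusted p = 0.0226). Of 8 activin and BMP receptors, Bmpr1a, Bmpr2 and Acvr1, which bind BMP ligands, rose over olive oil, by 0.40 ± 0.09, 0.32 ± 0.08 and 0.52 ± 0.15 on the log2 scale.

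Downstream, 7 of 13 SMADs and corepressors rose over olive oil and none fell (median log2 fold change 0.35), where 18.9% of all genes rose and 16.6% fell. Tgif1, a corepressor of TGF-beta signalling, rose by 1.27 ± 0.23 (adjusted p = 0.00143), and Smad1, Smad5 and Smad4, the BMP-regulated and the common SMADs, by 0.46 ± 0.10, 0.42 ± 0.09 and 0.32 ± 0.08. Of 17 genes tested for storage and release of latent TGF-beta, 9 rose and 1, the protease Furin that processes the TGF-beta precursor, fell (median 0.72). Ltbp3, a latent TGF-beta binding protein, averaged 82.3 ± 7.87 CPM in CCl4+EtOH and 48.6 ± 2.91 CPM in olive oil kidneys, a log2 change of 0.76 ± 0.10 (adjusted p = 0.000193). Mmp14, a membrane protease, rose by 1.77 ± 0.23 (adjusted p = 0.000203), and the integrins Itgb3 and Itgav, which release TGF-beta from its latent complex, by 1.95 ± 0.26 (adjusted p = 0.000244) and 0.90 ± 0.15 (adjusted p = 0.000692). Of the other integrin genes listed, Itgb1 rose, while Itgb5, Itgb6 and Itgb8 were not called over olive oil.

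Of 20 TGF-beta target and matrix genes, 15 rose over olive oil and none fell, with a median log2 fold change of 1.20, where 18.9% of all genes rose and 16.6% fell. Vim, an intermediate filament, rose by 0.89 ± 0.16, Tgfbi, a TGF-beta-induced matrix protein, by 1.05 ± 0.20 and Loxl2, a collagen crosslinking enzyme, by 1.29 ± 0.26. Acta2, the smooth muscle actin of myofibroblasts, stood at 0.31 ± 0.34 (adjusted p = 0.496) and Postn, a matrix protein, at 0.54 ± 0.43 (adjusted p = 0.342), both picked after their values were seen. The count of risen targets is 9 without CCl4+EtOH replicate 1 or without olive oil replicate 3.

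Of 10 BMP target genes, 2 rose over olive oil and none fell (median log2 fold change 0.12), where 18.9% of all genes rose and 16.6% fell. Id3, an inhibitor of DNA binding, averaged 68.5 ± 6.26 CPM in CCl4+EtOH, 56.8 ± 11.2 CPM in CCl4, 75.7 ± 17.1 CPM in EtOH and 38.9 ± 12.5 CPM in olive oil kidneys, and rose by 0.82 ± 0.23 over olive oil (adjusted p = 0.0158). Id1, of the same family, averaged 28.0 ± 10.4 CPM in CCl4+EtOH, 22.3 ± 4.12 CPM in CCl4, 35.7 ± 8.87 CPM in EtOH and 14.2 ± 6.77 CPM in olive oil kidneys, and rose by 0.97 ± 0.33 over olive oil (adjusted p = 0.0368). Both means were thus highest in EtOH kidneys, and CCl4+EtOH against EtOH gave -0.15 for Id3 and -0.36 for Id1, neither called. Against EtOH, none of the 10 BMP targets rose and 1 fell, where 18.1% of all genes rose and 16.2% fell. The fallen gene was Id4, of the same family, at -0.73 ± 0.25 (adjusted p = 0.0406), against -0.33 ± 0.27 over olive oil (adjusted p = 0.365). No BMP target is called higher without olive oil replicate 1 or replicate 2. Of 17 antagonists and modulators, 5 rose and 2 fell. Chrdl1, a BMP antagonist, fell to 4.61 ± 1.66 CPM in CCl4+EtOH kidneys, against 19.6 ± 6.09 CPM in olive oil kidneys, a log2 change of -2.08 ± 0.31 (adjusted p = 0.000421). It ran from 8.29 to 13.7 CPM in CCl4 and from 7.8 to 13.0 CPM in EtOH kidneys, at -0.89 ± 0.27 (adjusted p = 1) and -0.97 ± 0.27 (adjusted p = 0.164) over olive oil, neither called. Tsku changed by -1.11 ± 0.22 (adjusted p = 0.00205), while Fstl1, a follistatin-like protein, rose by 1.15 ± 0.20 and Inha, the inhibin subunit, by 1.40 ± 0.37. The 5 risen modulators number 2 without CCl4+EtOH replicate 1, olive oil replicate 2 or olive oil replicate 3, and 3 without CCl4+EtOH replicate 2. Of 10 other ligands tested, Inhbb, an activin B subunit, rose by 1.98 ± 0.39, Bmp1, a matrix-processing protease, by 1.32 ± 0.26, Bmp3 by 1.52 ± 0.36 and Gdf15, a stress-induced cytokine, by 1.42 ± 0.47, and none fell.

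Around the PDGF system, 5 of 10 genes rose over olive oil and none fell (median log2 fold change 0.72), where 18.9% of all genes rose and 16.6% fell. Plat, the tissue plasminogen activator that cleaves PDGF-C, averaged 145 ± 48.8 CPM in CCl4+EtOH and 70.7 ± 3.16 CPM in olive oil kidneys, a log2 change of 1.03 ± 0.22 (adjusted p = 0.00302). Plaur, the urokinase receptor, rose by 1.64 ± 0.35 (adjusted p = 0.00303), Lrp1, a scavenger receptor that binds PDGFRB, by 0.64 ± 0.14, Nrp1, a coreceptor, by 0.47 ± 0.11 and Pdgfra, the alpha receptor, by 0.81 ± 0.20. Of 11 CCN family and YAP target genes tested, 4 rose and none fell (median 0.95), among them Axl, a receptor kinase, by 1.26 ± 0.18 and Wisp1, a relative of Ctgf, by 1.57 ± 0.36. The risen genes number 2 with the title number block, and 1 gene is called lower in DESeq2, in limma-voom and without CCl4+EtOH replicate 3. Ankrd1, a YAP target, reached 46.7, 34.3 and 3.63 CPM in CCl4+EtOH kidneys and 3.11, 1.90 and 1.84 CPM in olive oil kidneys, a log2 change of 3.64 ± 0.66 (adjusted p = 0.00141). Cyr61, the CCN member nearest to Ctgf, had 136, 83.7 and 28.5 CPM in CCl4+EtOH and 30.4, 39.3 and 54.3 CPM in olive oil kidneys, and at 1.004 ± 0.48 was not called (adjusted p = 0.124). No gene of these lists was called in CCl4 or in EtOH against olive oil.

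**Figure D5:**
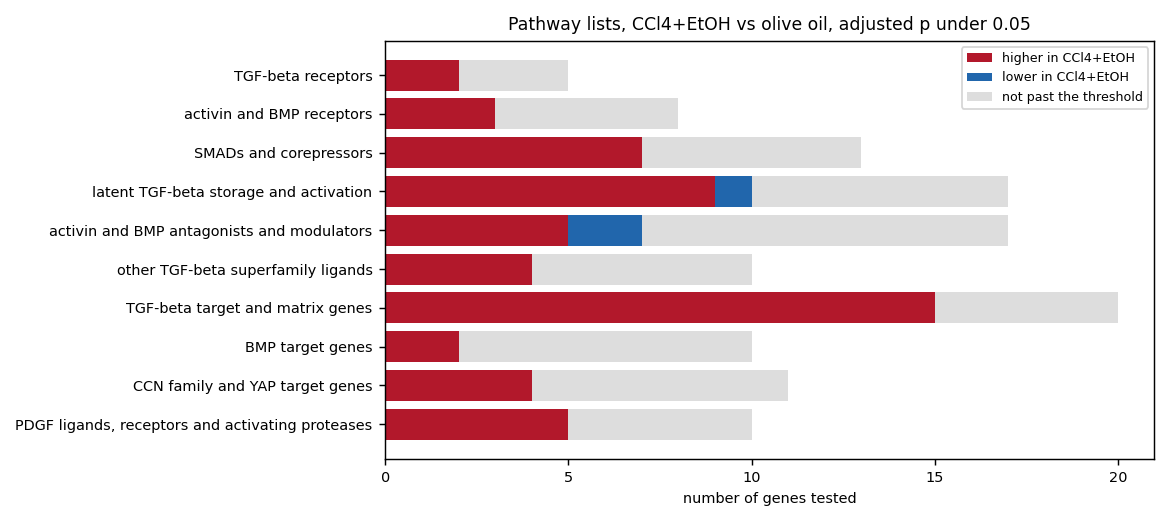
Number of genes tested in each of 10 pathway lists (x axis) in CCl4+EtOH over olive oil kidneys, split into higher, lower and not past the threshold. TGF-beta target and matrix genes have 15 of 20 higher, and the lists with any lower gene are latent TGF-beta storage with 1 and the antagonists with 2.

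Markers of some other cells moved with these genes and those of others did not, and their part in the results was not tested. In bulk tissue, fewer cells of a type and less RNA per cell cannot be told apart. The counts of markers called over olive oil stand beside 18.9% of all genes that rose and 16.6% that fell. The 14 fibroblast and pericyte markers, with 8 risen and none fallen over olive oil, summed to 1722, 972 and 813 CPM in CCl4+EtOH kidneys, between 476.6 and 762.1 CPM in CCl4, between 525 and 690 CPM in EtOH, and to 803, 563 and 411 CPM in olive oil kidneys. That list shares collagen genes, Postn and Acta2 with the TGF-beta target list and Pdgfra with the PDGF list. Its count is thus not separate from theirs. The 5 mesangial markers, with 1 risen, none fallen and a median log2 fold change of 0.18, summed to between 213 and 234 CPM in CCl4+EtOH and between 127 and 154 CPM in olive oil libraries, and the 9 macrophage markers, with 8 risen, to between 491 and 716 CPM in CCl4+EtOH and between 220 and 305 CPM in olive oil libraries. None of these markers was at 0 in either group. The 10 proximal tubule markers, with 4 fallen, summed to 8433, 7558 and 18544 CPM in CCl4+EtOH and between 19101 and 21878 CPM in olive oil libraries. Tubule segments further down (Henle's loop, distal tubule, collecting duct) had 12 markers, with none risen and 4 fallen. Those 12 summed to 5409, 6500 and 8230 CPM in CCl4+EtOH kidneys, against 8194 to 9897 CPM with olive oil. The last CCl4+EtOH value thus lay within the olive oil range. The 6 platelet markers, of cells that carry PDGF and TGF-beta, summed to between 9.48 and 15.2 CPM in CCl4+EtOH and between 12.7 and 17.1 CPM in olive oil libraries. Of the 4 platelet markers tested, 1 rose and 1 fell. Of 10 endothelial markers none rose and 1 fell. Their sums were 498 to 626 CPM in CCl4+EtOH and 575 to 609 CPM in olive oil libraries. Of 8 podocyte markers 2 rose and none fell, and of 7 T and B cell markers none was called. The 4 proliferation markers summed to 271.4, 100.2 and 23.5 CPM in CCl4+EtOH and between 6.76 and 10.9 CPM in olive oil libraries.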

How the data were processed

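RNA of frozen mouse kidneys was extracted with a spin-column kit and made into Illumina libraries, per the labels' protocols. The authors deposited a table of raw counts by gene symbol with a column for each mouse and no normalization. GSNAP and mm9 are named per the submitters' processing notes. The counting program, annotation and strand setting: not given in the sources used here. Of 23893 rows, 27 carried dates in place of symbols, with 0.168% to 0.209% of counts, and were left out.

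The test was edgeR 4.0.16 under R 4.3.3 (filterByExpr, TMM, robust quasi-likelihood F test, 4 groups, Benjamini-Hochberg adjustment over 16105 genes, threshold 0.05). Adjusted p-values come from it where no other tool is named, and the SE is approximate (absolute log2 fold change over the root of F). The CCl4 schedules were compared in 5 groups over 16442 genes. Lengths and overlaps came from GENCODE exon unions of another build, and promoters from RefSeq. Alternatives used DESeq2 1.42.0, limma-voom (limma 3.58.1), other filters and groups, and libraries left out. The pipeline was checked on simulated counts. P-values rest on a spread between mice estimated for each gene over the 4 groups together, not within a single group. Replicates of a group differed by at least 10.3 in chi-square per gene. CCl4+EtOH replicate 3 differed from replicates 1 and 2 by 159 and 131. The members and lists were chosen with earlier results of these data known. Named genes were all 10 members, up to 4 genes of each list with the smallest p in CCl4+EtOH over olive oil and at least 1 CPM, and the 3 nearest genes of each called member, apart from a gene that is not reported here. Genes named beyond that rule, Furin, Itgb1, Itgb5, Itgb6, Itgb8, Pdgfra, Pdgfd, Cyr61, Acta2 and Postn, were chosen after their values were seen.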

Additional observations from a re-analysis of the deposited data

Results flagged for a closer look

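The change that came with CCl4 differed for 3 genes between the groups given ethanol, which also had 4 further weeks, and those without it, by the interaction in edgeR. It was 1.36 on the log2 scale for Tgfb1, where CCl4+EtOH over EtOH gave 1.31 and CCl4 over olive oil -0.05. For Pdgfb it was 1.57, from 1.51 over EtOH and -0.05 over olive oil, and for Pdgfrb it was 1.37, from 0.96 over EtOH and -0.41 over olive oil. These comparisons include EtOH replicates 1 to 3, whose adrenal marker sums of 800 to 1283 CPM stand beside 13.1 CPM in EtOH replicate 4. Without those libraries, with a lone EtOH library left, the interaction was 1.53 for Tgfb1, 1.505 for Pdgfb and 1.36 for Pdgfrb, close to the values with them, and none was called.

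The lowest CCl4 library for Bmp7, replicate 3 at 43.3 CPM, lay far from the other CCl4 libraries at 49.9 to 51.2 CPM by Dixon's criterion for groups of 4. Of 20 such groups of values checked, chance flags about 1 in 20.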

How the results depend on the processing

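Tgfb1, Tgfb2 and Pdgfb stayed called over olive oil in CCl4+EtOH kidneys in all 23 alternatives, with log2 fold changes of 0.795 to 1.25, 1.47 to 2.58 and 1.15 to 1.58. No log2 value of a member that was called changed sign. Over olive oil, 5 members rose and this became 3 with only the groups compared and with a block splitting the title numbers into low and high, and 3 to 6 with a library left out. The members lost in the first 2 of these were Tgfb3 (adjusted p = 0.0753 and 0.0934) and Pdgfa (adjusted p = 0.0788 and 0.0935). In the title number block the olive oil libraries analysed were all low and the CCl4+EtOH libraries all high. Within CCl4 it split the schedules, and within EtOH only replicate 1 was low. The block is thus largely confounded with treatment and added time, and stands for no batch named in the labels. The 1 lower member, Bmp7, became 0 with no filter, with 5 groups, with only the groups compared, with the title number block and without the EtOH libraries holding adrenal transcripts, and 0 to 1 with a library left out. Over EtOH, 6 higher became 1 without those EtOH libraries (4 to 7 with a library left out), and 1 lower became 2 in limma-voom and 0 without those libraries (1 to 2). Over CCl4, 6 higher ran from 3, without CCl4+EtOH replicate 1, to 7, and 0 lower became 1 in DESeq2 and in limma-voom (0 to 1). For the interaction, 3 higher became 0 without those EtOH libraries, where log2 values were 1.53 for Tgfb1, 1.505 for Pdgfb and 1.36 for Pdgfrb against 1.36, 1.57 and 1.37 with them (2 to 6 with a library left out), and 0 lower became 1 in DESeq2 and 2 in limma-voom (0 to 2). For the CCl4 schedules, 0 lower became 1 with only the groups compared. CCl4 and EtOH against olive oil called 0 members in every alternative run.

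Over all genes, 5706 calls over olive oil became 3276 with only the groups compared and 3099 with the title number block. Over EtOH, 5514 became 3390 with only the groups compared and 335 without the adrenal EtOH libraries. The interaction had 1468, against 2519 in DESeq2, 4810 in limma-voom and 3 without those libraries. EtOH against olive oil had 27, against 350 in DESeq2, 223 in limma-voom, 62 with 5 groups, 94 with only the groups compared, 65 with the block and 1 without those libraries. CCl4 against olive oil had 0, against 1 in DESeq2. The CCl4 schedules had 0, against 25 in DESeq2, 8 in limma-voom and 164 higher with 111 lower in the fit of only the groups compared. With a library left out, calls ran from 3904 to 7417 over olive oil, from 3195 to 7417 over EtOH, from 3480 to 7396 over CCl4, from 292 to 4881 for the interaction and from 3 to 154 for EtOH against olive oil, with the highest count of each without CCl4+EtOH replicate 3. The causes were not tested.

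Among pathway lists over olive oil, SMADs had 7 higher, against 4 with only the groups compared and without CCl4+EtOH replicate 1 or 2. TGF-beta targets had 15, against 9 with only the groups compared and 7 with the block. Activin and BMP receptors had 3, against 0 with the block. PDGF genes had 5, against 8 in limma-voom and without CCl4+EtOH replicate 3.

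No paired analysis was possible because the numbers in the titles are each used once and replicate numbers follow accession order. Depth limits Inhba, at 0 to 22 counts per library, which did not pass the filter on low counts.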
